A study of Saccharomyces cerevisiae with 4 samples.

Results

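The genes described here build the meiotic chromosome, recombine it and form the spore in budding yeast. They were 43 genes chosen by name, and 42 of them had a probe set under their own name on the array, among 5449 genes of Saccharomyces cerevisiae measured in all. HED1 was the gene without one and is not analysed here. Each of the 42 was read by 1 probe set, and none of these probe sets is of the class that matches several sequences. The samples were strains lacking SIR2, SIR3 or SIR4, written sir2Δ, sir3Δ and sir4Δ, and the wild type BY4742, an alpha haploid used in many laboratories. The deletions carry KanMX, so effects of KanMX and of the deletion cannot be told apart, and whether the deletions were made in BY4742 itself is not given in the sources used here. All 4 strains grew at 30 °C in YPD, a rich glucose medium, to a density of 0.7. There was 1 array per strain, so no value below has a replicate check, no test was run and no p-value is given. The series asks which genes the complex of Sir2, Sir3 and Sir4 represses.

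Sir2, Sir3 and Sir4 keep the mating-type genes at HML and HMR silent, so that an alpha cell reads alpha information alone. When both a and alpha information are read, as in a diploid, the haploid programme is switched off, including RME1, the repressor of meiosis. Entry into meiosis also requires starvation. The programme then runs as a cascade. Ime1 switches on the early genes, which break, pair and recombine chromosomes, and Ndt80 switches on the middle genes, which build the prospore membrane and the spore wall. In growing cells Ume6 represses many early genes, and Sum1 with the Sir2 relative Hst1 represses many middle genes.

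Values are RMA levels on the log2 scale, and differences are deletion minus wild type on that scale. The call limit was a 2-fold difference either way. The background level of an array, taken from the probe sets of a different yeast species on it, was 4.32 in sir2Δ, 4.39 in sir3Δ, 4.28 in sir4Δ and 4.29 in wild type. Each deleted gene was lowest in the strain named for it. SIR3 differed by -4.81 in sir3Δ, while SIR2 in sir2Δ and SIR4 in sir4Δ were below background and at least 49.7-fold and 51.9-fold lower than in wild type. All 12 haploid-specific genes examined were lower in all 3 deletions, with medians of -3.44, -3.77 and -3.87 in sir2Δ, sir3Δ and sir4Δ, or -3.44, -3.73 and -3.73 with values raised to background. The 4 alpha-specific genes examined were also lower in all 3 deletions, and none of 6 a-specific genes was called. RNA came from whole cultures, so a change in the number of cells that express a gene and a change in RNA per cell cannot be told apart.

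The meiotic and spore genes did not rise together in any deletion. In sir2Δ none was higher and 4 of 42 were lower, or 9.52%, against 1.45% higher and 1.41% lower among all measured genes. In sir3Δ none was higher and 3 were lower, or 7.14%, against 0.734% higher and 1.67% lower among all genes. In sir4Δ 1 was higher and none was lower, against 0.349% higher and 1.1% lower among all genes. No gene of the group was called in all 3 deletions, where 0.22% of all genes were higher and 0.771% lower. In all, 6 of 42 or 14.3% were called in at least 1 deletion, against 3.85% of all genes. With values raised to background, 3 were lower in sir2Δ and 2 in sir3Δ, and 5 of the 6 called genes kept a call. Shares over all genes with values so raised are not given here, so these counts have no matching share. The genes of the group are dim, and calls are more frequent among dim genes. Of the 1938 genes whose mean level lay within the range of the group, from 3.05 to 9.33, 7.28% were called in at least 1 deletion. These 1938 genes were brighter as a set than the group, with a median wild-type level of 8.15 against 5.92. They do not match it in level. Within that range 2.58% were higher and 2.89% lower in sir2Δ, 1.03% were higher and 3.56% lower in sir3Δ, and 0.774% were higher and 2.48% lower in sir4Δ.

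The median difference of the 42 genes was -0.10 in sir2Δ, -0.23 in sir3Δ and -0.01 in sir4Δ. Over all genes the medians were -0.00, -0.01 and 0.03, and over the 1938 genes within the range of the group they were 0.00, -0.03 and 0.03. Below wild type lay 24 of the 42 genes in sir2Δ, 33 in sir3Δ and 21 in sir4Δ, which is 57.1%, 78.6% and 50.0%. Over all genes the shares were 50.4%, 51.6% and 41.8%, and over the 1938 genes 49.7%, 54.5% and 43.2%. All these counts include genes below background. When the normalization was repeated over the genes of this yeast alone, the medians of the group became -0.09, -0.12 and 0.04. That of sir3Δ shrank and that of sir4Δ changed sign. The medians after this step were 0.01, 0.01 and 0.02 over all genes, and 0.01, 0.03 and 0.03 over the 1938 genes. With the deposited values raised to background instead, the medians of the group were 0.03, -0.13 and -0.01. Those of sir2Δ and sir4Δ equal the difference in background level between that array and the wild-type array. This is the value given to every gene raised on both arrays, so these medians do not measure a change. Wild type had the highest of the 4 levels for 13 of the 42 genes, or 31.0%, against 20.9% of all genes. It had the lowest for 6, or 14.3%, against 24.8% of all genes. Over the 1938 genes these shares were 21.9% and 23.5%. The sizes of the differences, taken without sign, had medians of 0.29, 0.26 and 0.23 in the group. They were 0.20, 0.14 and 0.10 over all genes, and 0.22, 0.18 and 0.14 over the 1938 genes.

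**Figure D1:**
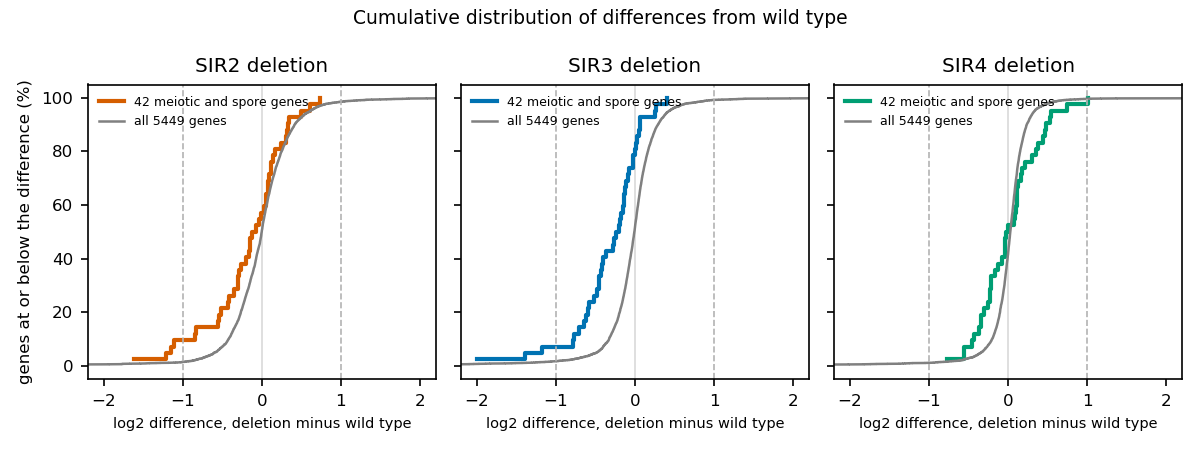
Cumulative share of genes in percent against the log2 difference from wild type, for the 42 meiotic and spore genes (thick line) and all 5449 genes (thin line) in each deletion, with dashed lines at 2-fold. The thick line lies left of the thin one in sir3Δ, where 33 of 42 genes were below wild type, and crosses it near 0 in sir4Δ.

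Fewer of these genes than of all genes gave a signal above background in growing cells. Of the 42 genes, 30 or 71.4% lay above background on all 4 arrays. The shares were 97.0% of all genes and 92.3% of the 1938 genes within the range of the group, which are brighter as a set. Another 7 or 16.7% of the 42 lay below background on all 4, against 1.73% of all genes and 4.02% of those 1938, and 5 lay above it on some. By array, 31 were above background in sir2Δ, 30 in sir3Δ, 30 in sir4Δ and 34 in wild type. The 7 genes below background throughout were MEK1, HOP2, MND1, CSM4, SPO74, SPS2 and DIT2, for which a change would not be seen unless it lifted them above that level. By that definition none of the 7 was above background in a deletion. Of the 5 genes with mixed readings, REC114 was above background in sir2Δ alone, and NDJ1, SPO20, SPS22 and GAS4 in wild type alone.

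**Figure D2:**
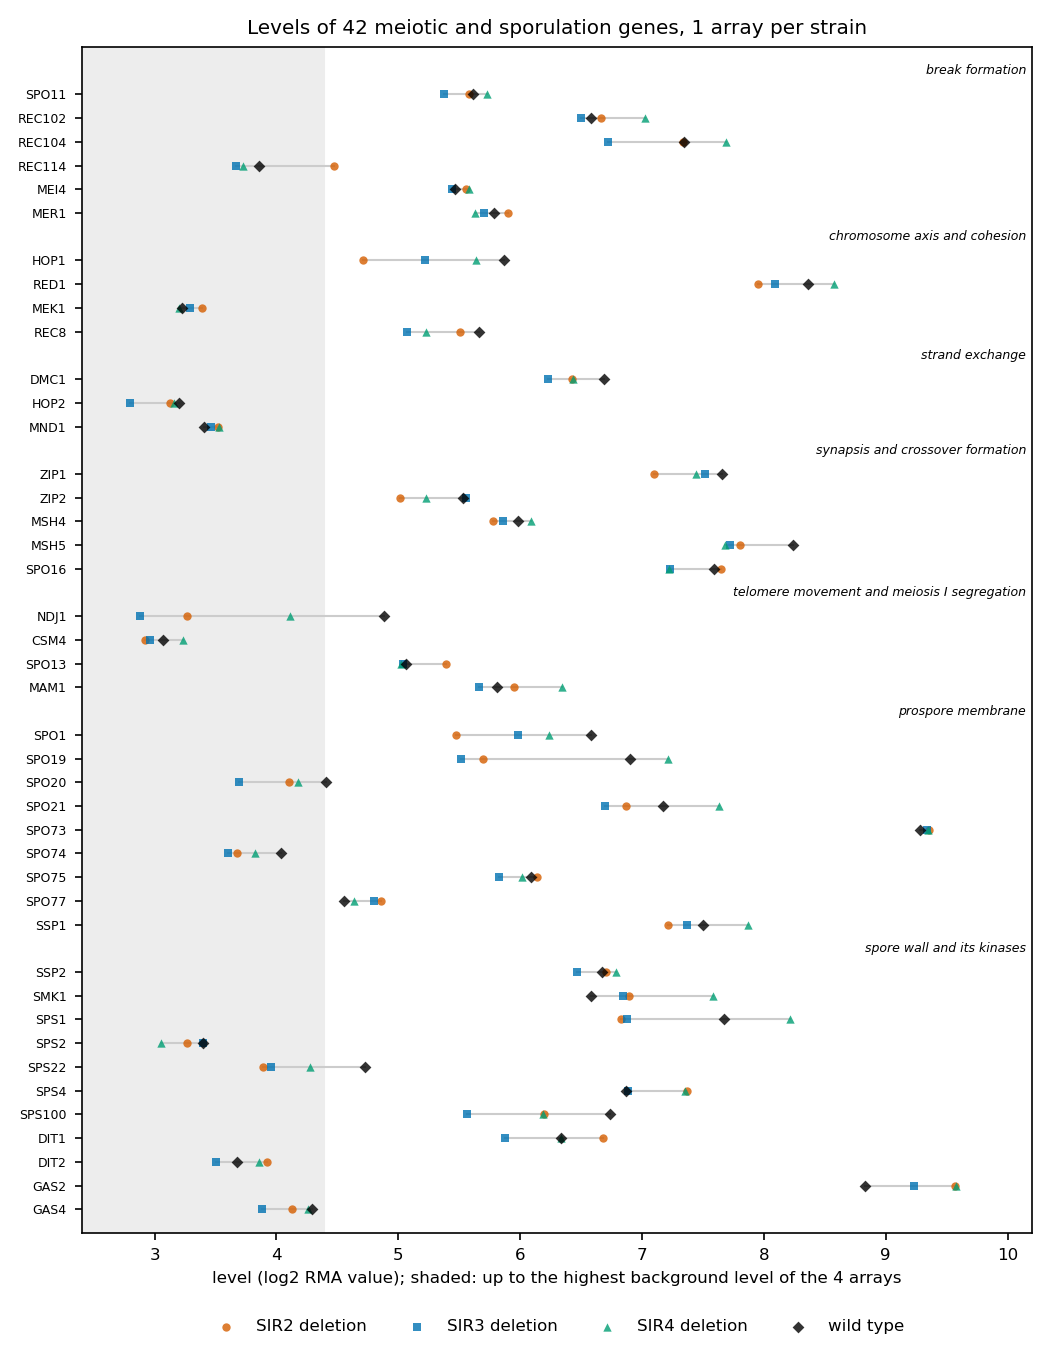
Log2 level of each of the 42 genes on the 4 arrays, with 1 point per strain and the genes ordered by role. The shaded area ends at the highest background level, 4.39, and for most genes the 4 points lie close together, while NDJ1, SPO19 and SPS1 have the widest ranges.

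The break formation group holds SPO11, the enzyme that cuts the chromosome, its partners REC102 and REC104, the break factors REC114 and MEI4, and MER1, which helps splice meiotic transcripts. None of the 6 was called. Medians were 0.09, -0.14 and 0.11 in sir2Δ, sir3Δ and sir4Δ. SPO11 was at 5.58, 5.37 and 5.73 in sir2Δ, sir3Δ and sir4Δ, against 5.62 in wild type. These 4 values span 0.35, with wild type between the deletions. REC102 had the highest mean difference of the group, with levels of 6.66, 6.50 and 7.03 in the deletions, in the same order, and 6.58 in wild type. REC104 was at 7.34, 6.72 and 7.69 in the deletions and 7.34 in wild type, which put it lowest in sir3Δ and highest in sir4Δ. It had the lowest mean difference of the group, -0.09. All 6 genes were below wild type in sir3Δ, by at most 0.63 for REC104. MEI4 differed by at most 0.117 and MER1 by at most 0.163 in size. REC114 was at 4.47 in sir2Δ, just above background, and at 3.66, 3.73 and 3.86 in sir3Δ, sir4Δ and wild type, all below it.

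Among the genes of the chromosome axis and cohesion, HOP1 was called. HOP1 encodes a protein of the meiotic chromosome axis along which breaks are made. Its level was 4.71 in sir2Δ, 5.22 in sir3Δ, 5.64 in sir4Δ and 5.87 in wild type. All 3 deletions were below wild type, and sir2Δ was the lowest, at 0.449 of the wild-type level. The differences were -1.16, -0.64 and -0.23. RED1, the partner of Hop1 on the axis, was at 7.95, 8.09 and 8.58 in the deletions and 8.37 in wild type, so it was below wild type in sir2Δ and sir3Δ and above it in sir4Δ, in each case by less than 2-fold. REC8, the meiotic subunit of cohesin, was at 5.51, 5.07 and 5.23 in the deletions and 5.66 in wild type, with differences of -0.15, -0.59 and -0.43. MEK1, the kinase that directs repair towards the homologous chromosome, had the highest mean difference, 0.07, but stayed between 3.20 and 3.39, below background on all 4 arrays.

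The strand exchange genes include DMC1, the meiotic recombinase, and HOP2 and MND1, whose products act together to help it. DMC1 was at 6.42, 6.23 and 6.43 in sir2Δ, sir3Δ and sir4Δ and 6.69 in wild type. All 3 deletions lay below wild type, by -0.27, -0.46 and -0.26, and none reached the 2-fold limit. HOP2 and MND1 were not above background on any array, and their levels ran from 2.80 to 3.53.

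The 5 genes of synapsis and crossover formation were above background on all arrays and none was called. They are ZIP1, the central element of the synaptonemal complex, ZIP2 and SPO16, which act together where synapsis starts, and MSH4 and MSH5, whose products form a clamp at crossovers. MSH5 had the lowest mean difference and was at 7.81, 7.72 and 7.68 in sir2Δ, sir3Δ and sir4Δ, against 8.24 in wild type. The deletions lay close together and all were below wild type, by -0.43, -0.52 and -0.55. MSH4 had the highest mean difference and was at 5.78, 5.86 and 6.09 in the deletions and 5.98 in wild type, which lay among them. ZIP1 was at 7.10, 7.51 and 7.44 in the deletions and 7.66 in wild type. ZIP2 differed by -0.52, 0.03 and -0.30 and SPO16 by 0.06, -0.36 and -0.37. The group medians of -0.43, -0.14 and -0.30 rested on 4 of 5 genes below wild type in each deletion.

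The group of telomere movement and meiosis I segregation held the lowest difference of all 42 genes. NDJ1, whose product tethers telomeres to the nuclear envelope in meiosis, was at 3.27 in sir2Δ, 2.88 in sir3Δ, 4.11 in sir4Δ and 4.88 in wild type. It was above background in wild type alone, so its decrease has only a bound, of at least 1.47-fold in sir2Δ, at least 1.41-fold in sir3Δ and at least 1.52-fold in sir4Δ. The measured differences of -1.61, -2.00 and -0.77 counted as calls in sir2Δ and sir3Δ, and neither stands when values are raised to background. CSM4, which acts with Ndj1 in moving chromosomes by their ends, was below background on all arrays. MAM1, which makes sister kinetochores attach to the same pole in meiosis I, had the highest mean difference of the group. MAM1 was at 5.95, 5.66 and 6.34 in the deletions and 5.81 in wild type. SPO13, a regulator of the meiosis I pattern of segregation, was at 5.39, 5.04 and 5.02 in the deletions and 5.06 in wild type, close to wild type in all but sir2Δ.

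Among the 9 genes of the prospore membrane, the double membrane that grows around each spore nucleus, SPO1 and SPO19 were called. SPO19 encodes a cell-surface type protein of the forming spore, and it was at 5.69 in sir2Δ, 5.51 in sir3Δ, 7.21 in sir4Δ and 6.90 in wild type. The SIR2 and SIR3 deletions stood together, at 0.432 and 0.382 of the wild-type level, and sir4Δ stood with wild type. The differences were -1.21, -1.39 and 0.31. SPO1, which encodes a protein similar to phospholipase B, was at 5.47, 5.98 and 6.24 in sir2Δ, sir3Δ and sir4Δ and 6.58 in wild type. As with HOP1, all 3 deletions were below wild type, and sir2Δ was the one past 2-fold, at 0.464 of the wild-type level. The SPO1 differences were -1.11, -0.60 and -0.34.

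The other genes of the prospore membrane were not called. SPO21 encodes a component of the meiotic outer plaque of the spindle pole body, where the membrane starts. It was at 6.87, 6.69 and 7.63 in the deletions and 7.17 in wild type, so that it was below wild type in sir2Δ and sir3Δ and above it in sir4Δ. SSP1, a protein of the leading edge of the membrane, had the same order of signs, with differences of -0.28, -0.13 and 0.37. SPO73 was the steadiest gene of the 42, at 9.35, 9.34 and 9.35 in the deletions and 9.28 in wild type. SPO77, which acts with the kinase Sps1, had the highest mean difference of this group, with 4.85, 4.80 and 4.64 in the deletions and 4.55 in wild type. SPO20, the SNARE protein of prospore membrane fusion, was at 4.10, 3.69 and 4.17 in the deletions, all below background, and at 4.40 in wild type. SPO75 differed by 0.05, -0.26 and -0.07.

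The spore wall group holds 11 genes, and SMK1 and SPS100 were called in opposite directions and in different deletions. SMK1, a MAP kinase of spore wall assembly, was at 6.89 in sir2Δ, 6.84 in sir3Δ, 7.58 in sir4Δ and 6.58 in wild type. All 3 deletions were above wild type, and SMK1 was the sole gene of the 42 called higher, at 2.01-fold in sir4Δ, at the limit itself. Its differences were 0.32, 0.26 and 1.01. SPS100 encodes a protein of the mature spore wall. It was at 6.19, 5.57 and 6.19 in sir2Δ, sir3Δ and sir4Δ and 6.74 in wild type, with differences of -0.55, -1.17 and -0.55. All 3 deletions were below wild type, and after repeated normalization sir3Δ fell just short of the limit.

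Just inside the 2-fold limit lay SMK1 at 1.01 in sir4Δ, and next outside it by measured difference lay SPS22, SPS1 and GAS2. SPS1 encodes a kinase of the Ste20 family needed to close the prospore membrane and build the wall, and it was at 6.83, 6.88 and 8.21 in sir2Δ, sir3Δ and sir4Δ, against 7.67 in wild type. As for SPO19, sir2Δ and sir3Δ lay together below wild type, by -0.84 and -0.79, and sir4Δ lay above it, by 0.54. SPS22 acts with its relative SPS2 in the glucan layer of the wall. Its level was 3.89, 3.96 and 4.28 in the deletions, not above background except in wild type at 4.73. The decrease of SPS22 thus has only a bound, of at least 1.33-fold in sir2Δ, 1.27-fold in sir3Δ and 1.37-fold in sir4Δ. GAS2, a glucan-remodelling enzyme of the spore wall, was at 9.57, 9.23 and 9.57 in the deletions and 8.83 in wild type. All 3 deletions were above wild type, by 0.74, 0.40 and 0.74, and GAS2 had the highest mean difference of the 42 genes. GAS4, its relative in the spore wall, was at 4.13, 3.88 and 4.26 in the deletions, all below background, and 4.29 in wild type, at the background level of that array.

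The remaining spore wall genes differed by at most 0.50 in size in every deletion. DIT1, which makes the dityrosine precursor of the outer wall, was at 6.68, 5.87 and 6.33 in the deletions and 6.33 in wild type. DIT2, which completes that pathway and is the neighbour of DIT1 on the chromosome, was below background on all 4 arrays. SSP2, the activator of Smk1, stayed within 0.21 of wild type, with differences of 0.03, -0.21 and 0.11. SPS4, a gene named for its induction in sporulation, differed by 0.50, 0.02 and 0.48.

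**Figure D3:**
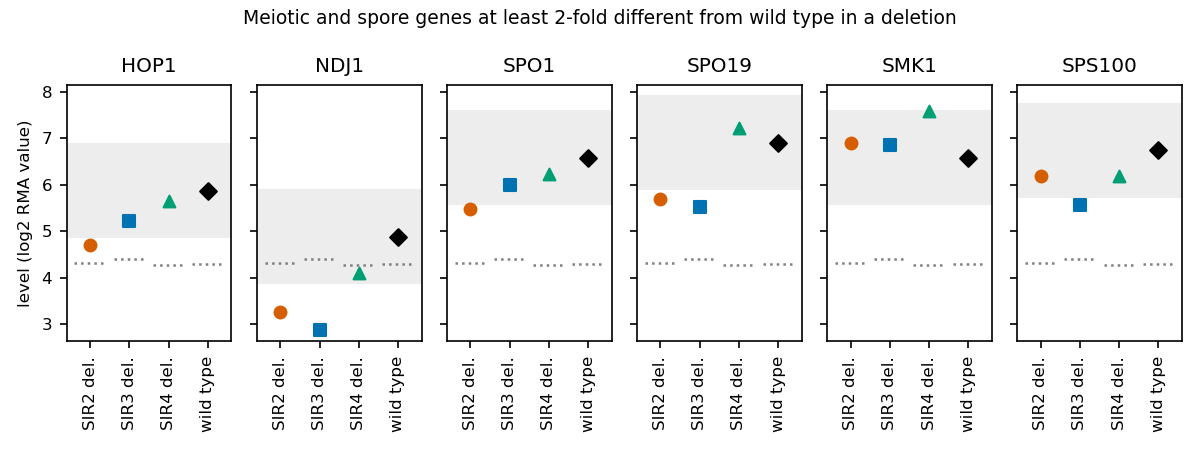
Log2 level of the 6 genes called in at least 1 deletion, 1 point per array, with the shaded band marking 2-fold either side of wild type and dotted lines marking the background of each array. HOP1, SPO1, SPO19 and SPS100 leave the band downwards above background, SMK1 reaches its upper edge in sir4Δ at 7.58, and NDJ1 leaves it below background.

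The deletions were also set against each other, which does not use the wild-type array. Between sir2Δ and sir3Δ none of the 42 genes differed 2-fold, where 0.807% of all genes were higher and 0.239% lower in sir2Δ. Between sir2Δ and sir4Δ SPO19 and SPS1 were lower in sir2Δ and none was higher, against 0.496% of all genes lower and 1.16% higher. Between sir3Δ and sir4Δ SPO19, SPS1 and NDJ1 were lower in sir3Δ and none was higher, against 0.771% of all genes lower and 0.496% higher, and NDJ1 was below background on both arrays. The size of the difference between sir4Δ and sir3Δ was 1.70 for SPO19 and 1.33 for SPS1, both higher in sir4Δ. Over the group the median of sir3Δ minus sir4Δ was -0.32, with 33 of 42 genes or 78.6% lower in sir3Δ. Over all genes that median was -0.03 with 56.4% lower, and over the 1938 genes within the range of the group -0.05. The group median was -0.23 after repeated normalization, with 30 of 42 genes lower in sir3Δ, against 2738 of 5449 over all genes. The group median of sir2Δ minus sir3Δ was 0.18, with 11 of 42 genes or 26.2% lower in sir2Δ. Over all genes that median was 0.004, with 2650 of 5449 lower, and 43.4% of the 1938 genes were lower. After repeated normalization the group median was 0.017, with 19 of 42 lower, against 2759 of 5449 over all genes. The group median of sir2Δ minus sir4Δ was -0.08, with 27 of 42 genes or 64.3% lower in sir2Δ. Over all genes that median was -0.03, with 2998 of 5449 lower, and 53.7% of the 1938 genes were lower. After repeated normalization the group median was -0.14, with 28 of 42 lower, against 2834 of 5449 over all genes.

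The genes that control entry into meiosis were examined beside these. RME1, which is one of the haploid-specific genes, was lower in all 3 deletions, with differences of -3.80, -3.96 and -4.62, and IME4, a methyltransferase of mRNA that promotes meiosis, was higher in all 3, by 3.56, 3.66 and 3.72. The other 16 of 18 measured genes of this list were not called. IME1, the master activator of early meiotic genes, was at 8.69, 8.38 and 8.10 in sir2Δ, sir3Δ and sir4Δ and 7.77 in wild type, higher in all 3 by less than 2-fold. NDT80, the activator of the middle genes, was at 6.47, 6.58 and 7.10 in the deletions and 7.08 in wild type. IME2, the kinase that acts after Ime1, stayed within 0.16 of wild type. The repressors UME6, SUM1 and HST1 stayed within 0.19 of wild type, and MUM2, a partner of Ime4, differed by -0.56, -0.05 and -0.15.

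Further genes of the same pathways had no calls. Over all genes 3.85% were called in at least 1 deletion, a share at which lists this short would hold few. None of 17 other measured genes of meiotic recombination was called in any deletion, with medians of -0.03, -0.02 and -0.09. Of these 17, 5 lay below background on all 4 arrays. SPO22 and SAE2 had the lowest mean differences, with -0.75, -0.41 and -0.38 for SPO22, a synapsis factor, and -0.27 and -0.33 in sir2Δ and sir3Δ for SAE2, a nuclease factor. SAE2 was below background in sir4Δ, at least 1.39-fold lower. MEI5 and SKI8 had the highest, with at most 0.30 for MEI5, which was below background on all 4 arrays. None of 30 other sporulation genes was called, with medians of 0.00, -0.15 and 0.13, and 3 of them lay below background on all 4 arrays. LOH1 and SGA1 had the lowest mean differences, SGA1 with -0.24, -0.61 and -0.48. LOH1 was below background in sir3Δ, where it was at least 1.37-fold lower, and differed by -0.07 and -0.33 in sir2Δ and sir4Δ. CRR1 and CLB6 had the highest, CRR1 with 0.26, 0.10 and 0.57. In that list too the median of sir3Δ minus sir4Δ was below 0, at -0.30, with 23 of 30 genes lower in sir3Δ.

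Relatives of these genes that act in growing cells were examined as well. Of 16 measured, RDH54 alone was called, lower in all 3 deletions by -2.34, -2.15 and -2.18, and it is also on the haploid-specific list. RDH54 works with Dmc1 in strand exchange. The list medians were -0.01, -0.02 and -0.02. PLB2, a phospholipase B gene like SPO1, differed by -0.79, -0.62 and -0.62. GAS5 and MSH3 had the highest mean differences, with 0.17, 0.10 and 0.19 for GAS5 and 0.25, 0.06 and 0.19 for MSH3. The cohesin gene MCD1, the mitotic counterpart of REC8, differed by at most 0.113 in size.

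**Figure D4:**
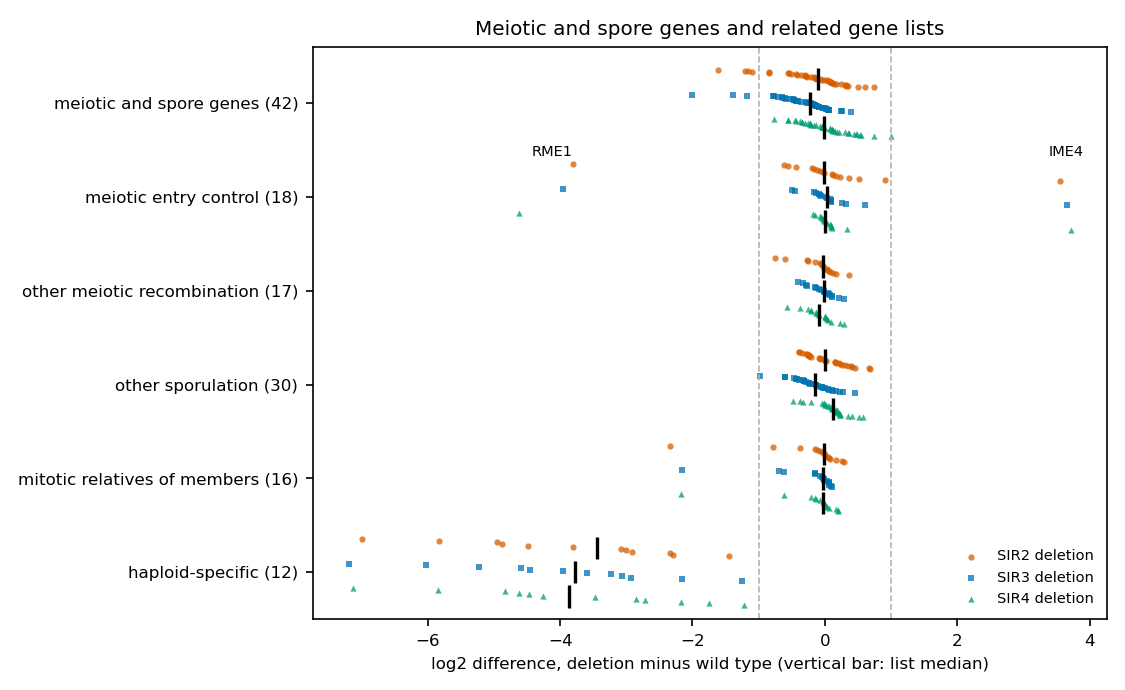
Log2 differences from wild type of single genes in each list, 1 row of points per deletion, with list medians as vertical bars, dashed lines at 2-fold and the number of genes in brackets. RME1 and IME4 stand far outside the dashed lines on opposite sides, all 12 haploid-specific genes lie below them, and the meiotic and spore genes lie mostly between them.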

How the data were processed

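RNA of 4 strains was measured on 1 Affymetrix array each, from 200 ng of total RNA labelled as biotinylated cRNA, per the labels' protocols. The deposited values are log2 levels that the authors made with RMA, per the submitters' processing notes (version and settings: not given in the sources used here). RMA includes quantile normalization, which removes a shift common to all genes. The deposited table held 10928 probe sets, of which 7244 have 1 symbol, 1 has several and 3683 have none in the platform annotation. Matching by gene identifier to the RefSeq R64 table gave 5498 probe sets for 5449 genes, the brightest probe set standing for a gene, and 1746 probe sets of a different yeast, whose 95th percentile was the background of an array. None of those 1746 differed 2-fold in any deletion. Precision is limited by the number of arrays.

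From these values each deletion was compared with wild type by subtraction of log2 levels, with no test since each strain has 1 array. For NDJ1, SPS22, SIR2, SIR4, LOH1 and SAE2, decreases into background are given as bounds, with values raised to background. Named were all genes called in any deletion, the next 3 by size, and the extremes of each role group and list. The genes, lists and rules were chosen with earlier results of these data known. Alternatives tried were a limit of 1.5-fold or 3-fold, median centring, repeated quantile normalization, raising values to or filtering on background, other probe set rules, background percentiles of 90 and 99, and the mean of the other 2 deletions as reference. The calling rule was also run on simulated arrays with changes set well past the limit. That run checks the code and not the calls made here. Promoter and protein sequences were not used here. Python 3.11.15, pandas 2.3.3 and NumPy 2.4.6 were used.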

Additional observations from a re-analysis of the deposited data

How the results depend on the processing

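No paired analysis was possible because each strain has 1 array and no result comes from a test. With a 1.5-fold limit 2 meiotic and spore genes were higher in sir2Δ and 2 in sir4Δ. At that limit 6 were lower in sir2Δ, 10 in sir3Δ and 1 in sir4Δ. The counts at this limit include genes below background. With a 3-fold limit 1 was lower in sir2Δ, 1 was lower in sir3Δ and 0 were higher in sir4Δ. Shares over all genes were not computed at these limits, nor for the reference used next. Whether such counts exceed those of all genes was therefore not examined. Against the mean of the other 2 deletions, which does not use wild type, 0 were lower in sir2Δ, 0 lower in sir3Δ and 3 higher in sir4Δ. These 3 were SPO19, SPS1 and NDJ1, the last of which was below background in all 3 deletions. All 8 calls made against wild type, SMK1 at 0.72 included, fell short of the limit against this reference. A difference that the deletions share shrinks against it, so it does not check those calls. The medians against this mean were 0.043 in sir2Δ and 0.20 in sir4Δ. Values raised to background gave a median of 0.031 in sir2Δ, the difference in background level between that array and wild type. They also ended both NDJ1 calls. Repeated normalization gave a median of -0.12 in sir3Δ and ended the SPS100 call. With background at the 99th percentile, 14 genes lay below it on all 4 arrays. Of the 83 counts and medians recomputed, 68 stayed within 1.5 times the reported count, or within the standard deviation of the 3 deletion medians. The 6 genes lower in sir2Δ at 1.5-fold are among these. That rule is wide for the medians. The sir4Δ median went from -0.01 to 0.04 after repeated normalization and still counted as having stayed. So did that of sir3Δ, from -0.23 to -0.13 with values raised to background. Some of the 68 could not move. Each measured gene of the group had 1 probe set and none matched several sequences, so the other probe set rules returned the same values. No called gene lay below background on all 4 arrays, so leaving such genes out could not change the counts of calls. With 1 array per strain, differences near the 2-fold limit, such as SMK1, have no error estimate, and 7 genes below background throughout give no information on change.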
